A study of Mus musculus with 45 samples.

Results

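The 57 genes described here encode ephrins, Eph receptors, semaphorins, plexins, neuropilins, Slits, Robo receptors and receptors for netrins, and were followed in mouse neural tube organoids with and without retinoic acid (RA). They are the genes on a list of 57 symbols whose mean level over all 45 libraries was at least 0.5 CPM (the reads of a gene scaled to a common library size). All 57 listed symbols were found in the table of 54532 genes and all 57 passed, whereas 15913 genes of the whole table reached the same level. The organoids were grown from wild-type R1 mouse embryonic stem (ES) cells, each clonally from cells embedded in Matrigel in N2B27, a serum-free medium that allows neural differentiation. The study compared untreated with RA-treated organoids: at day 2 the medium was exchanged for N2B27 alone (untreated) or for N2B27 with 250 nM all-trans RA, the derivative of vitamin A that patterns the hindbrain and spinal cord. RNA was collected at day 2, then 8 h and 18 h after it and every 12 h from there to 78 h, with 3 libraries for each of 15 groups, of which 21 libraries were untreated after day 2 and 21 had RA. The dose and the hours follow the paper and the sample titles, because the protocol text in the labels gives the dose in micromolar and gives later hours for the last 2 collections. The labels call the 3 libraries of a group biological replicates and do not say how many organoids each held, so p-values measure the spread between these libraries.

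Guidance genes encode secreted or membrane-bound cues and the receptors that read them, and they steer both growing axons and the borders between groups of cells. Ephrins on one cell bind Eph receptor kinases on its neighbour, and both cells respond; Slits bind Robo receptors and usually repel, semaphorins act through plexins with neuropilins as co-receptors for most of class 3, and netrins attract through Dcc and Neo1 or repel through Unc5 receptors. In the neural tube, Eph and ephrin genes are known for keeping hindbrain segments apart, and Slits and netrins for guiding commissural axons across the floor plate. Since each library was made from whole organoids, fewer cells of a type and less RNA per cell cannot be told apart in any value below.

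Each library held between 17298632 and 39688686 counted reads, with a median of 25923745. In 6 libraries the mean level of 4 genes of the Y chromosome was only 1.24 to 3.43 CPM, against 22.7 to 89.7 CPM in the other 39. These 6 were replicate 3 of RA at 8 h, all 3 untreated libraries of 30 h, and RA replicates 1 and 3 of 30 h, so that at 30 h only RA replicate 2 and at 8 h all but RA replicate 3 resembled the other times in this respect. The library numbers in the labels form an earlier series of 29 and a later one of 16, the latter holding all libraries of 66 h and 78 h, RA replicates 2 and 3 of 30 h, untreated replicate 3 of 54 h and day 2 replicate 3. Values at 8 h are given with and without RA replicate 3 where the call depends on it. At 30 h all untreated libraries had low levels of the Y-linked genes, so no comparison without such libraries could be made. There, values are given with and without RA replicate 2 where the call depends on it. The labels call the samples neural tube organoids. Markers of the neuroepithelium summed to 480 to 500 CPM at day 2. At 78 h they summed to 1131 to 1294 CPM in untreated and 1420 to 1614 CPM in RA-treated organoids. At that time 6 markers of pluripotent cells still summed to 487 to 588 and 300 to 591 CPM, down from 2044 to 2270 CPM at day 2. At 78 h RA raised 7 of 10 neuron markers and lowered 1, raised 5 of 6 floor plate markers, and raised 4 and lowered 1 of 7 neural crest markers. It raised 1 of 10 neuroepithelial markers, raised 1 and lowered 1 of 6 pluripotency markers, raised 2 of 4 tested endoderm markers, raised 1 and lowered 1 of 5 tested mesoderm markers, and raised 2 of 4 tested endothelial markers. Over all 17059 genes tested at 78 h, 7.66% rose and 4.03% fell. Earlier, 5 of the 10 neuroepithelial markers rose at each of 18, 30, 42 and 54 h, with a median log2 fold change of 2.51 at 30 h, and 1 fell at 42 h and at 54 h. Over all genes tested, 8.17%, 5.98%, 7.49% and 7.17% rose at these times, and 4.96% and 5.99% fell at 42 h and 54 h. At 42 h the neuroepithelial markers summed to 538 to 662 CPM untreated and 939 to 1096 CPM with RA. The part of any of these cells in the results below was not tested.

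Promoter sequences from RefSeq (build GRCm38.p6) were found for 49 of the 57 genes, in 65 windows of 300 bases, from 250 bases before the transcription start to 50 after it. Dcc, Efnb3, Plxna1, Plxna4, Sema3b, Sema3f, Sema6a and Slit1 had no window. The 250 bases before the start are printed for 2 genes that rose and 2 that fell with RA, to show the kind of promoter on which the opposite responses were measured, and capitals mark CpG dinucleotides. Efnb1 lies at chrX:99135811-99136060 on the plus strand, Unc5a at chr13:54949161-54949410 on the plus strand, Epha1 at chr6:42373269-42373518 on the minus strand and Unc5b at chr10:60831582-60831831 on the minus strand, and none of these stretches overlapped an annotated exon.
Efnb1: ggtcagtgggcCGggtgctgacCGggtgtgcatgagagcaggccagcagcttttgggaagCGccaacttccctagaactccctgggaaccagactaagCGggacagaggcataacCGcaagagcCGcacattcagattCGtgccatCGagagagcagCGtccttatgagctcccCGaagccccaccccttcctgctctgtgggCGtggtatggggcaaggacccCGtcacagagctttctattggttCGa
Unc5a: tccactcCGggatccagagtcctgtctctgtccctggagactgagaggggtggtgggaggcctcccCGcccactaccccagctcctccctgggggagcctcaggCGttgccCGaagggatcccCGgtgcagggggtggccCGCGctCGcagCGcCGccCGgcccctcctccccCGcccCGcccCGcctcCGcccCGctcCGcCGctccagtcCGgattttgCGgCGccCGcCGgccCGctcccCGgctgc
Epha1: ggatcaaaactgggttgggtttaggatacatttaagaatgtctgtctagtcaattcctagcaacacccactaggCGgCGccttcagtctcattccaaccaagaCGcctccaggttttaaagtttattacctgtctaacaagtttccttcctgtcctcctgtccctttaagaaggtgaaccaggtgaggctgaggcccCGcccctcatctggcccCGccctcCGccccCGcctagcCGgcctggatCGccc
Unc5b: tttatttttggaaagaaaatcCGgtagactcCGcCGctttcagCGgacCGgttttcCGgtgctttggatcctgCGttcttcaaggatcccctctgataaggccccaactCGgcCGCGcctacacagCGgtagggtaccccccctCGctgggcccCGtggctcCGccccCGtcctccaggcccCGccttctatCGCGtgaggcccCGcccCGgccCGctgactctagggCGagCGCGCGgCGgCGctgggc
The 4 stretches held 13, 25, 9 and 27 CpG dinucleotides in that order. Over whole windows the genes had a median of 22 CpG dinucleotides, with a range of 2 to 56, against a median of 7 over all 32851 windows. All windows include those of genes at any level, whereas these genes had passed a limit on level. Values over all windows, here and below, are thus not matched for expression. The half-site of nuclear receptors spelled AGGTCA was present on either strand in 7 of the 65 windows (10.8%) and in 16.3% of all windows. The 7 windows belonged to Nrp1, Plxnb2, Plxnd1, Sema4b, Sema4d, Sema5a and Sema6b, of which Nrp1, Plxnd1 and Sema5a were called with RA at some time, beside 24.3% of all genes tested. The DR1, DR2 and DR5 elements bound by RA receptors with their partners are direct repeats of such a half-site, here AGGTCA with the spellings AGTTCA and GGGTCA and also GGTTCA allowed, set 1, 2 or 5 bases apart. On either strand they occurred in 0 windows of these genes and in 0.222%, 0.268% and 0.0974% of all windows. This says only that these letters are not in these short windows.

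When levels were divided by exon length, so that genes can be compared with each other, the plexin Plxna1 stood highest, at 30.9 CPM per kb averaged over the 45 libraries. The ephrin Efnb2 (16.5 CPM per kb), Plxnb2 (16.3), the Eph receptor Ephb4 (14.7) and Plxnb1 (14.1) followed, and the lowest levels were those of Dcc (0.188), Unc5c (0.1) and Epha5 (0.0567). In the other roles the highest were Neo1 among netrin receptors (13.1 CPM per kb), Epha4 among A-type Eph receptors (11.3), Sema4c among semaphorins of classes 4 to 6 (9.97), Efna4 among A-type ephrins (9.09), Robo1 among Robos (2.51), Sema3e among class 3 semaphorins (2.44), Slit3 among Slits (2.4) and Nrp2 among neuropilins (1.31). Of the 11 genes that were highest in their role, Plxna1, Efnb2, Ephb4, Neo1, Sema4c, Efna4 and Robo1 were not called with RA at any of the 7 times, whereas Epha4, Sema3e, Slit3 and Nrp2 were. Over all genes tested, 24.3% were called at some time.

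**Figure D1:**
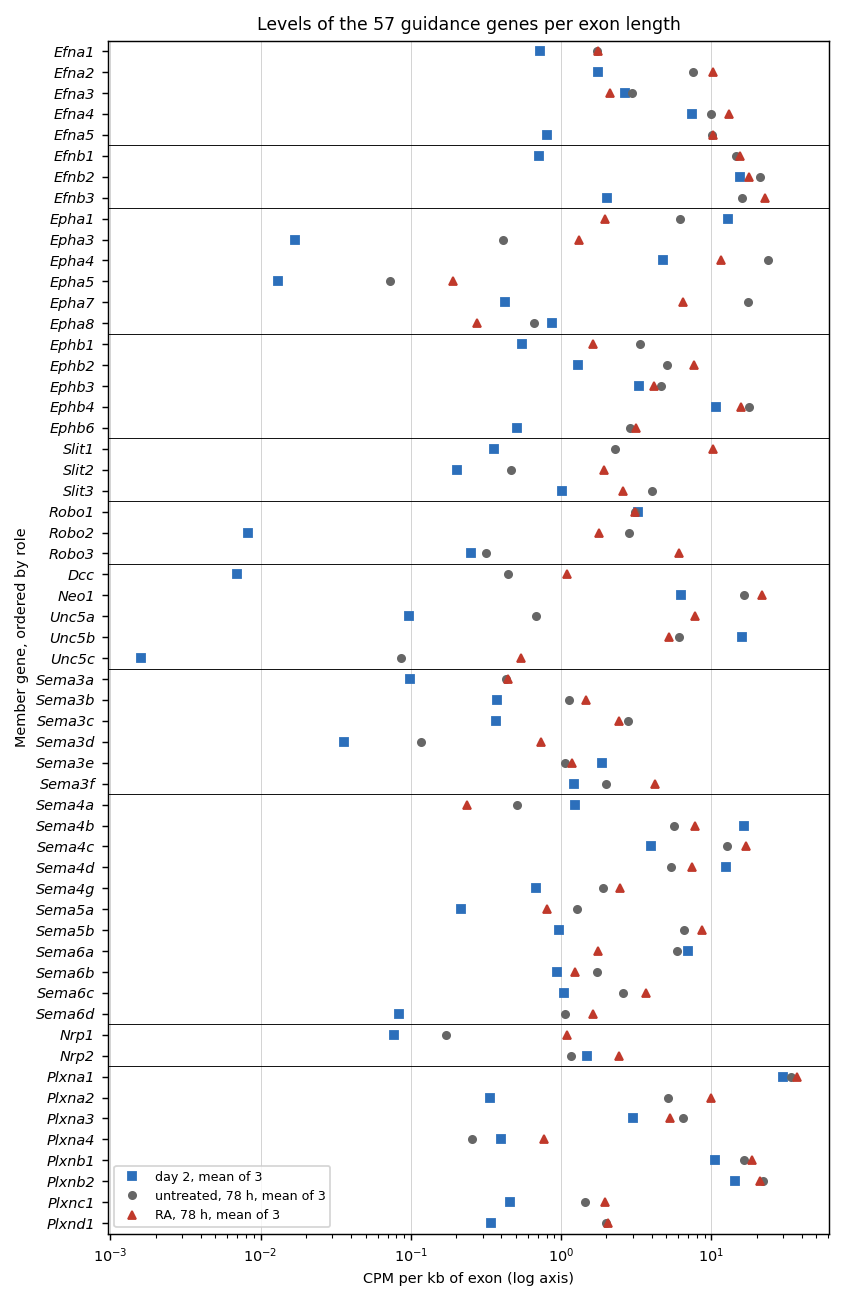
Mean level of each of the 57 genes per kb of exon (CPM per kb, log axis) at day 2 (squares), untreated at 78 h (circles) and with RA at 78 h (triangles), 3 libraries each, with lines between the roles. Plxna1 stands to the right at about the same level in the 3 groups, while Unc5c, Dcc, Robo2, Epha5 and Epha3 start far to the left at day 2.

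From day 2 to 78 h, most of these genes rose whether or not RA was given. In untreated organoids 35 of 57 rose and 5 fell, by edgeR's quasi-likelihood test where a call, here and throughout, needs a log2 fold change beyond 1 in size and a p under 0.01 after Benjamini-Hochberg adjustment over all genes tested. Over all 16681 genes tested, 20.3% rose and 13.6% fell. With RA, 36 rose and 6 fell, against 22.9% and 14.5% of 16892 genes tested. The median log2 fold change of the 57 was 1.47 untreated and 1.87 with RA, against 0.03 and 0.04 over all genes. Both comparisons use the same 3 day 2 libraries, so their values are set side by side only, and with 1 day 2 library in the series of the 78 h libraries no value within that series is given. The Eph receptor gene Epha7 rose by a log2 fold change of 5.36 ± 0.09 (SE) untreated and 3.93 ± 0.15 with RA, from 4.23, 4.5 and 3.86 CPM at day 2. Efnb1 rose by 4.34 ± 0.10 and 4.44 ± 0.11 on the log2 scale, and the A-type ephrin Efna5 by 3.63 ± 0.12 and 3.67 ± 0.10. These 3 genes thus ended far above day 2 in both conditions. Epha1, Sema4a, Sema4b and Unc5b fell in both conditions, though with library totals the call of Epha1 was lost untreated and that of Sema4b with RA, and without untreated replicate 1 of 78 h that of Epha1. Sema4d fell in untreated organoids (log2 fold change -1.22 ± 0.06) but was not called with RA, and Epha8 and Sema6a fell with RA (-1.67 ± 0.20 and -1.99 ± 0.08) but were not called without it. Robo3 and Sema3f rose with RA (4.59 ± 0.23 and 1.81 ± 0.12) and were not called in untreated organoids, and Plxna3 rose untreated (1.10 ± 0.10) and was not called with RA, a call lost without day 2 replicate 3.

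At matched times, few of these genes were called at 8 h and between 14 and 25 at each later time. At 8 h, 3 of 54 tested genes rose and 1 fell, where 1.26% of 15836 genes rose and 0.537% fell. The numbers were 11 up and 3 down of 56 at 18 h (8.17% and 2.76% of 16508 genes tested) and 18 up and 4 down of 56 at 30 h (5.98% and 2.48% of 16631). At 42 h, 17 of 57 rose and 8 fell, against 7.49% and 4.96% of 16508 genes. At 54 h there were 13 up and 7 down (7.17% and 5.99% of 16413), at 66 h 13 up and 6 down (7.06% and 4.44% of 16993), or 12 and 6 with the replicate number as a block, and at 78 h again 13 up and 7 down (7.66% and 4.03% of 17059). The median log2 fold change of the 57 was 0.04, 0.10, 0.77, 0.66, 0.60, 0.32 and 0.19 in order of time, and that of all genes lay between -0.01 and 0.04. Over the 7 times, 35 of the 57 were called at some time, 27 of them up and 11 down, where 24.3% of the 18352 genes tested at any time were called, 16% up and 9.14% down. Of the 35, 24 were called up only, 8 down only and 3 in both directions.

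The counts at 8 h and 30 h depend on single libraries. Without RA replicate 3, the 8 h comparison gave 6 genes up and 2 down, adding Epha4 (log2 fold change 1.04 ± 0.07, SE), Slit2 (2.02 ± 0.12) and Unc5c (2.35 ± 0.63) to the rises and Sema3f (-1.07 ± 0.16) to the falls, with adjusted p-values of 6.5e-09, 1.4e-09, 0.0097 and 8.6e-05. Without RA replicate 2, so that all libraries left had low levels of the Y-linked genes, the 30 h comparison gave 21 up and 6 down. Within the earlier series of library numbers RA had 1 library, replicate 1, which is assumed to vary like the 3 untreated libraries, and the counts were also 21 and 6. Without replicate 2 it added Slit1 (1.44 ± 0.22), Sema3a (1.35 ± 0.39) and Sema5b (1.07 ± 0.12) to the rises and Epha8 (-1.72 ± 0.17) and Slit3 (-1.87 ± 0.11) to the falls. Leaving out any 1 untreated library of 30 h instead lowered the rises to 8, 10 and 9 for replicates 1, 2 and 3, and the single fall at 8 h was lost without any 1 of the untreated libraries. Scaling by library totals moved the median of all genes by 0.12 at 18 h and 0.14 at 30 h on the log2 scale, and no call of these genes changed direction. With an adjusted p limit of 0.05 and no limit on size, 26 of the 57 rose and 18 fell at 18 h, where 55% of all genes tested passed, and 28 rose and 16 fell at 78 h, where 47% did. The same limits passed 11.2% of all genes at 8 h, 28.9% at 30 h, 50.8% at 42 h, 51.6% at 54 h and 47% at 66 h, and 77.2% untreated and 78.1% with RA from day 2 to 78 h.

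**Figure D2:**
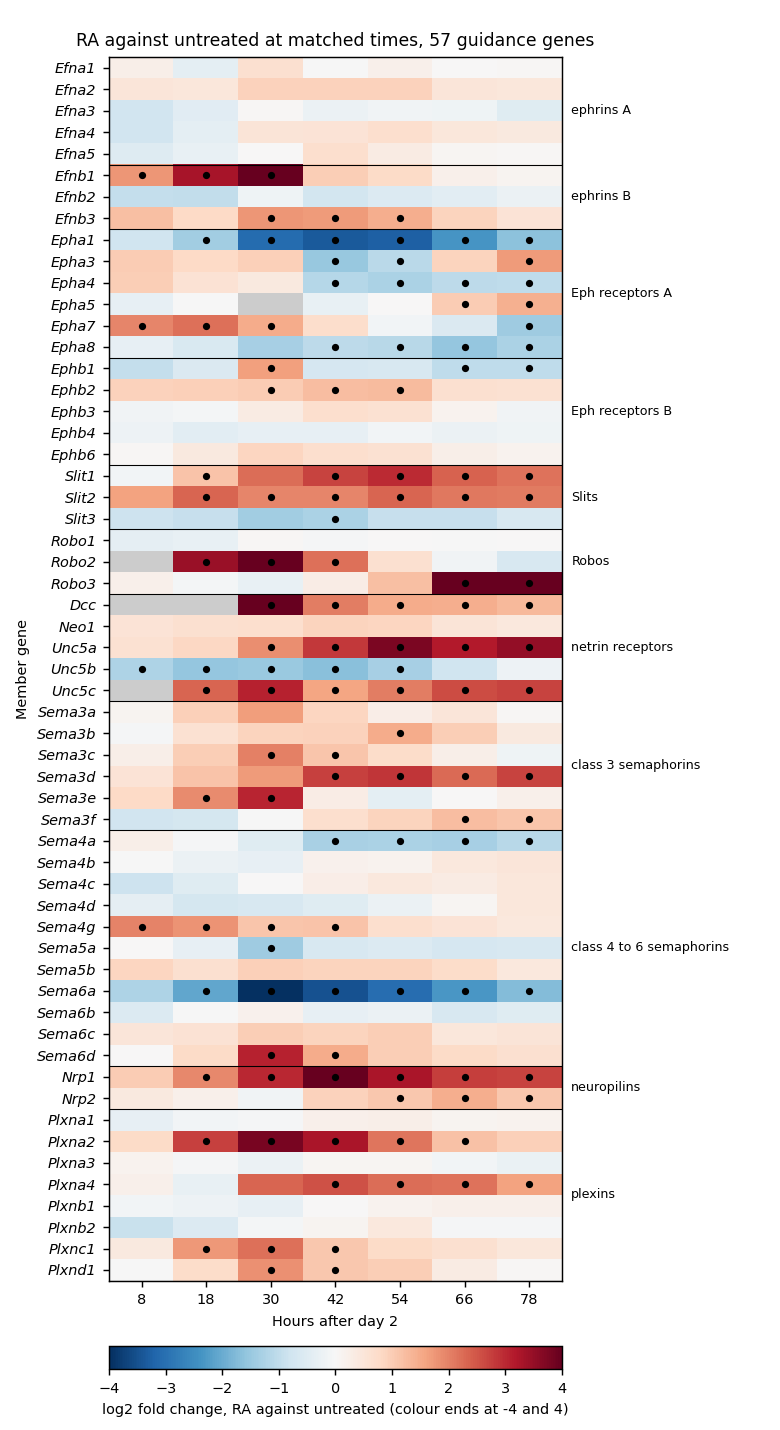
log2 fold change of RA against untreated organoids for the 57 genes (rows, grouped by role) at the 7 times (columns, hours after day 2), red for higher and blue for lower with RA, with colours ending at -4 and 4. Dots mark calls, grey cells were not tested, and the untreated libraries behind the Dcc value at 30 h held 0 reads of it. Rows of Slit1, Slit2, Nrp1, Unc5a and Unc5c stay red to 78 h and rows of Epha1 and Sema6a blue, whereas Efnb1, Robo2 and Sema3e are red only early.

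Among the ligands of Eph receptors, 2 of the 3 B-type ephrins rose with RA and none of the 5 A-type ephrins was called. Over all genes tested, 16% rose at some time and 24.3% were called in either direction. Efna1, Efna2, Efna3, Efna4 and Efna5, which are anchored to the membrane by lipid, are thus below the threshold at all 7 times. Efna2 did not overlap between the groups at 42 h, with 8.49, 12.5 and 10 CPM untreated and 21.3, 20 and 18.3 CPM with RA. Efnb1, a transmembrane ephrin, was already raised at 8 h. Its level was 3.07, 3.38 and 2.65 CPM untreated and 11.8, 11.8 and 7.29 CPM with RA (log2 fold change 1.77 ± 0.23, adjusted p = 0.0043), a call that was lost with the replicate number as a block (adjusted p = 0.011), without any 1 of the untreated libraries or without RA replicate 1 or 2. At 18 h it measured 3.25, 3.55 and 4.29 CPM untreated and 36, 36.1 and 38.9 CPM with RA (3.31 ± 0.09, adjusted p = 2.1e-11), a rise of 9.92-fold in the fit. All RA libraries were above all untreated ones at both times, and at 30 h the gap reached a log2 fold change of 4.36 ± 0.22, adjusted p = 3.5e-05. The untreated level was higher from 42 h, and at 78 h the groups overlapped, with 45.3, 50.5 and 54.7 CPM untreated and 50.4, 52.6 and 58.8 CPM with RA. Efnb3, the third transmembrane ephrin, was called up at 30, 42 and 54 h, with a log2 fold change of 1.70 ± 0.11 at 42 h (adjusted p = 4.3e-07). It measured 6.72, 6.6 and 6.24 CPM untreated and 10.5, 11.5 and 11.9 CPM with RA at 18 h, and 52.7, 48.4 and 51.1 against 65, 72.3 and 81 CPM at 78 h. The RA libraries were the higher ones at both ends of the course without a call, and the call at 30 h was lost without any 1 untreated library. Efnb2, the most abundant ephrin, was the lower with RA at 18 h, at 51.4, 58.7 and 59 CPM against 114, 109 and 112 CPM, which did not pass the fold threshold.

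Of the 6 A-type Eph receptors, all were called at some time, against 24.3% of all genes tested (16% up and 9.14% down), in 6 calls up and 17 down. Epha1 fell furthest. It measured 75.8, 68 and 72.8 CPM untreated and 26.9, 28.9 and 26.7 CPM with RA at 18 h (-1.38 ± 0.06, adjusted p = 1.2e-09). By 42 h the log2 fold change was -3.37 ± 0.10, adjusted p = 2.9e-09, which is 10.3-fold lower, and at 78 h the libraries held 19.1, 28.6 and 24.7 CPM untreated and 8.28, 8.33 and 6.41 CPM with RA (-1.64 ± 0.14, adjusted p = 3.5e-06). The RA-treated organoids thus held a few CPM from 42 h on, while the untreated ones were lower only after 54 h. Exons of Epha1 share 236 bases with Zyx on the opposite strand, and with the strand setting of the counting not stated, reads there cannot be told apart. Epha8, another member of this class, was called down at 42, 54, 66 and 78 h. Its libraries held 5.41, 6.89 and 5.58 CPM untreated and 3.82, 3.92 and 3.91 CPM with RA at 18 h, and 3.06, 3.39 and 2.93 against 1.07, 1.43 and 1.37 CPM at 78 h (-1.27 ± 0.19, adjusted p = 2.2e-04). The groups did not overlap at either time, although 18 h gave no call, and that of 42 h was lost with library totals or without untreated replicate 3 or RA replicate 2. Epha4, a receptor for both classes of ephrins that marks hindbrain segments in the embryo, changed sides. At 18 h it was the higher with RA, at 52.1, 56.4 and 52.3 CPM against 40.4, 31.2 and 37.3 CPM, without a call. At 78 h it measured 161, 192 and 220 CPM untreated and 89.1, 99.6 and 92 CPM with RA (-1.01 ± 0.09, adjusted p = 3.7e-06), and it was called down from 42 h onward. Its log2 fold changes at 66 h and 78 h were close to -1, so that the calls at both times were lost with library totals and without the untreated replicate 3 of their time; at 78 h RA replicates 1 and 3 also decided the call.

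Epha7 and Epha3 were called in opposite directions at different times. Epha7, which encodes a receptor also known as a segment marker, was called up at 8, 18 and 30 h and down at 78 h. At 8 h it measured 5.76, 5.71 and 5 CPM untreated and 20.4, 22.3 and 21.2 CPM with RA (1.96 ± 0.12, adjusted p = 2.1e-04). At 18 h the values were 6.54, 7.96 and 6.62 and 33.7, 33.6 and 28.7 CPM (2.20 ± 0.10, adjusted p = 2.2e-09), and at 78 h they were 162, 162 and 192 and 70.4, 70.4 and 50 CPM (-1.42 ± 0.11, adjusted p = 2.1e-06). The untreated mean was 7.04 ± 0.799 CPM at 18 h and 172 ± 17.1 CPM at 78 h (SD, n = 3), and the RA mean 32 ± 2.87 and 63.6 ± 11.8 CPM, so that both gained Epha7 and the untreated organoids the more. Epha3 ran the other way, from 2, 2.93 and 1.59 CPM untreated and 0.932, 0.687 and 0.669 CPM with RA at 42 h (-1.53 ± 0.30, adjusted p = 0.0015) to 4.03, 3.48 and 3.18 and 11.2, 8.74 and 14.2 CPM at 78 h (1.69 ± 0.18, adjusted p = 2.0e-05). It was also called down at 54 h, a call lost without RA replicate 3. Epha5 was called up at 66 h and 78 h, with 1.37, 1.07 and 1.23 CPM untreated and 3.04, 2.73 and 3.85 CPM with RA at 78 h (1.41 ± 0.20, adjusted p = 1.9e-04). Its call at 66 h, with a log2 fold change of 1.00, was lost with the replicate number as a block, with no filter, in one fit of all 45 libraries and without untreated replicate 1 or 2 or RA replicate 1.

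Of the 5 B-type Eph receptors, Ephb1 and Ephb2 were called, beside 24.3% of all genes tested. Ephb2 was called up at 30, 42 and 54 h, with 21.1, 18.2 and 21.3 CPM untreated and 36.8, 42 and 36.9 CPM with RA at 18 h and 55.9, 63.2 and 72.2 against 81.4, 95.8 and 114 CPM at 78 h. RA libraries were the higher ones at both of these times without a call, and the largest fitted value was that of 54 h (1.26 ± 0.09, adjusted p = 7.5e-07). The call at 30 h was lost without untreated replicate 1 or RA replicate 1. Ephb1 was called in opposite directions. It measured 1.84, 2.68 and 2.96 CPM untreated and 8.12, 8.46 and 6.52 CPM with RA at 30 h (1.63 ± 0.24, adjusted p = 0.0025), a call lost without any 1 untreated library or RA replicate 1. At 78 h it measured 20.9, 21.9 and 27.1 and 9.41, 11.3 and 13.9 CPM (-1.01 ± 0.14, adjusted p = 1.1e-04). The untreated level at 30 h, in the libraries with low Y-linked genes, was below that of the untreated libraries at both neighbouring times (5.23, 6.35 and 5.71 CPM at 18 h and 11.9, 12.3 and 10.1 CPM at 42 h). The falls at 66 h and 78 h had log2 fold changes near -1 and were lost with library totals and without untreated replicate 3; that of 78 h was lost also with no filter and without RA replicate 1 or 2, and that of 66 h without RA replicate 1. Ephb3, Ephb4 and Ephb6, the last of which lacks kinase activity, were not called at any time.

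Slit1 and Slit2, secreted repellents that floor plate cells and motor neurons are known to make, rose with RA and kept the difference to the end. Slit1 measured 2.17, 1.07 and 2 CPM untreated and 3.08, 3.92 and 4.57 CPM with RA at 18 h (1.14 ± 0.23, adjusted p = 0.0012), a call lost without untreated replicate 2 or RA replicate 3. At 78 h it measured 12.9, 14.3 and 13.5 and 52.7, 62.2 and 65.5 CPM (2.16 ± 0.09, adjusted p = 8.8e-09), after the largest difference at 54 h (2.98 ± 0.12, adjusted p = 2.0e-08). Every RA library lay above every untreated one at both times, and at 30 h, where Slit1 was not called, RA replicate 2 held 14.7 CPM against 4.86 and 4.57 CPM in the others. Slit2 measured 5.46, 3.63 and 5.52 CPM untreated and 23, 26.8 and 23.1 CPM with RA at 18 h (2.32 ± 0.12, adjusted p = 9.8e-09), and 11.9, 11.7 and 11.6 against 44.1, 47.9 and 54.7 CPM at 78 h (2.08 ± 0.09, adjusted p = 1.2e-08). Its log2 fold change stayed between 1.94 and 2.34 at all 6 times from 18 h. At 30 h both groups were below their level of 18 h and 42 h, at 2.29, 2.93 and 2.6 CPM untreated and 8.42, 11.9 and 9.95 CPM with RA. Slit2 at 8 h separated the libraries: RA replicates 1, 2 and 3 held 23.3, 20 and 5.3 CPM, the third being within the untreated range of 5.49, 5.66 and 4.81 CPM. Slit3 went the other way and was called down at 42 h alone, with 24.1, 25 and 26.9 CPM untreated and 11, 12.3 and 8.69 CPM with RA (-1.26 ± 0.11, adjusted p = 6.7e-06). Its RA libraries were nevertheless the lower ones without overlap at all 7 times, with log2 fold changes from -0.63 ± 0.10 at 78 h to -1.38 ± 0.31 at 30 h. Beside Slit1 and Slit2, the floor plate markers rose with RA: their summed level at 78 h was 18.2 to 18.5 CPM untreated and 59.9 to 79.7 CPM with RA, with the transcription factor Foxa2 at 0.416 to 0.558 and 10.3 to 13.1 CPM and Shh, the ligand secreted by the floor plate, at 0.0836 to 0.119 and 6.81 to 8.67 CPM. Spon1 did not rise at 78 h and was called down at 18, 30 and 42 h. How much of the Slit difference goes with floor plate cells was not tested.

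The 3 Robo receptors had 3 different courses. Robo1, the most abundant, was not called at any time, with 47.9, 53.5 and 52.8 CPM untreated and 47.2, 52.4 and 54.5 CPM with RA at 78 h. Robo2 was called up at 18, 30 and 42 h. It measured 0.316, 0.248 and 0.293 CPM untreated and 4.04, 2.97 and 2.52 CPM with RA at 18 h (3.46 ± 0.29, adjusted p = 7.6e-07). At 30 h the untreated libraries held 10 reads of it in all and the RA libraries 711, a ratio of 50.7 with a 95% interval of 27.4 to 106 from counting error alone. The order had turned by the end, with 47.4, 46.5 and 49.4 CPM untreated against 28.7, 28.8 and 33.1 CPM with RA at 78 h, where the groups did not overlap but the difference did not pass the fold threshold. Robo3, which is known for letting commissural axons cross the midline, was not called up to 54 h and was called up after it. At 18 h it measured 1.26, 1.9 and 1.04 CPM untreated and 1.56, 1.2 and 1.13 CPM with RA, which overlapped. At 66 h the values were 0.664, 0.772 and 1.41 and 18.6, 23.6 and 16.6 CPM (4.38 ± 0.23, adjusted p = 2.7e-07), and at 78 h they were 2.45, 1.87 and 2.2 and 33.3, 39.9 and 51.8 CPM (4.28 ± 0.18, adjusted p = 1.2e-08). It had the largest fitted rise of the 57 genes at both times. Markers of neurons moved at the same times: 5 of 10 rose and 1 fell at 66 h, and 7 rose and 1 fell at 78 h, when their summed level was 303 to 318 CPM untreated and 395 to 431 CPM with RA, among them Dcx, a microtubule protein of young neurons, at 3.93 to 5.79 CPM untreated and 40.5 to 54.8 CPM with RA. At 42 h the same sum had been lower with RA, at 120 to 129 against 259 to 295 CPM. It was already 260 to 273 CPM at day 2, before RA was given. Stmn2, a tubulin-binding protein of neurons, was called down at both late times. Over all genes tested, 7.06% rose and 4.44% fell at 66 h, and 7.66% rose and 4.03% fell at 78 h. The part of neurons in the Robo3 rise was not tested.

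**Figure D3:**
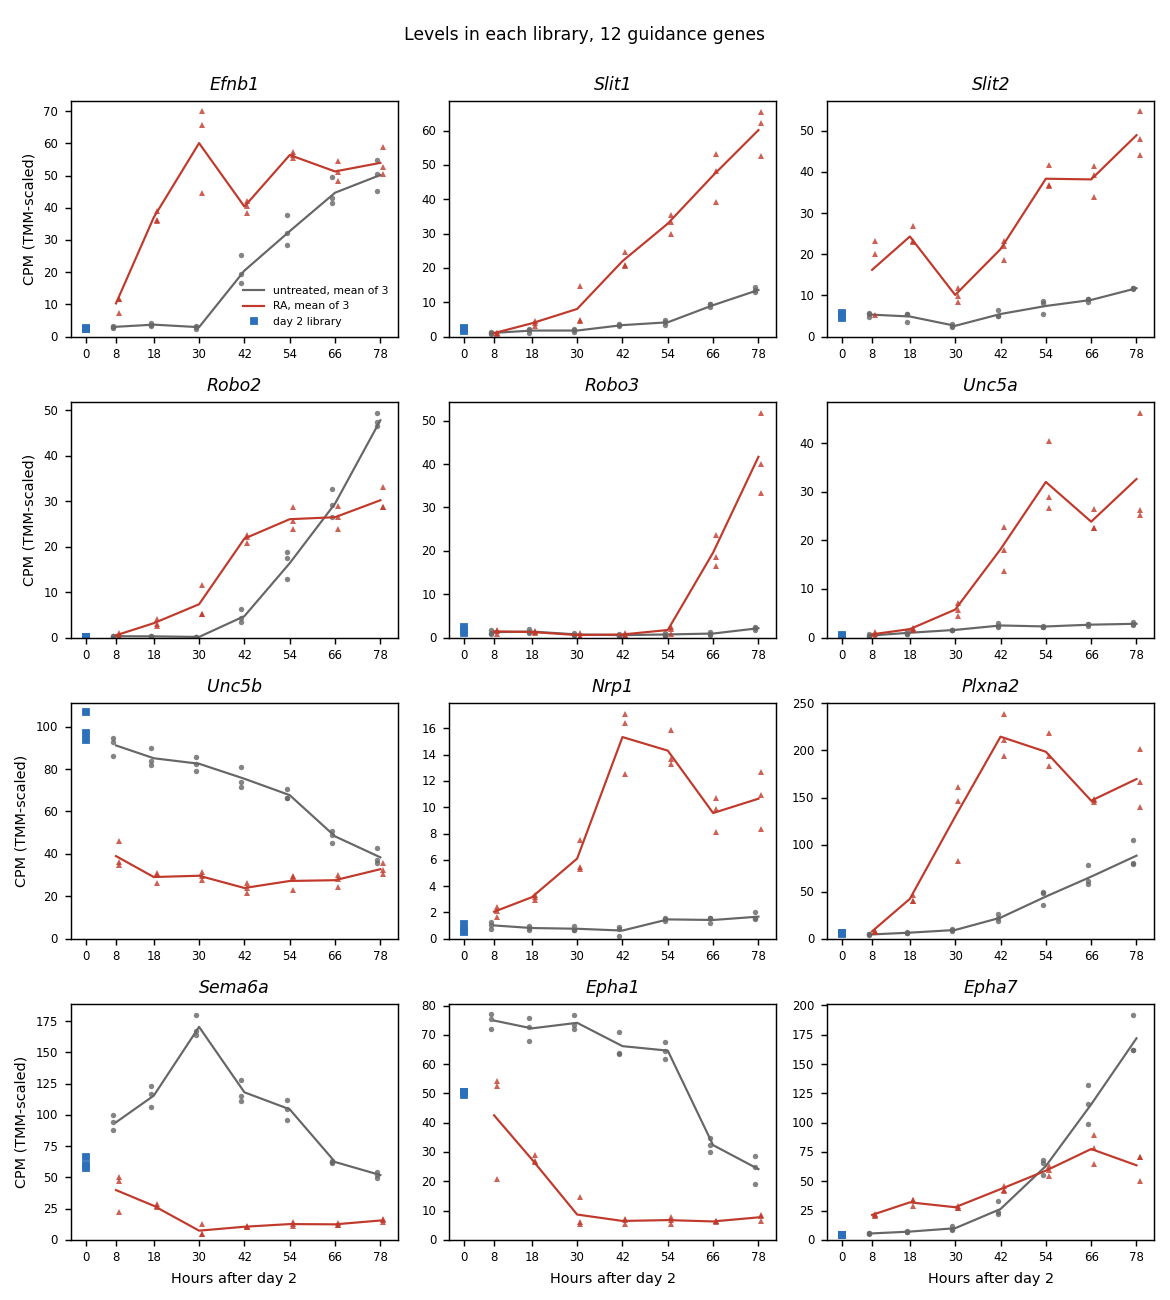
Level in each library (points) and mean of 3 (lines) against hours after day 2 for 12 of the genes, in TMM-scaled CPM, untreated in grey circles, RA in red triangles and day 2 in blue squares. Robo3 leaves the baseline only at 66 h, Efnb1, Robo2 and Epha7 rise first with RA and later without it, and replicate 3 of RA at 8 h stands apart in Slit2, Sema6a and Epha1.

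Netrin receptors moved in both directions. Dcc, the receptor that mediates attraction to netrins, was called up from 30 h onward. It was not tested at 18 h for lack of reads, with 0.18, 0.206 and 0.133 CPM untreated and 0.217, 0.742 and 0.391 CPM with RA. At 30 h the untreated libraries held 0 reads and the RA libraries 82, and against a floor of 3 reads a library (0.173 CPM) the RA level of 0.887 CPM was at least 5.11-fold higher. That call was lost with the replicate number as a block, without any 1 untreated library and without RA replicate 1 or 3. At 78 h Dcc measured 5.5, 5.89 and 6.16 CPM untreated and 11.7, 15 and 16.2 CPM with RA (1.30 ± 0.13, adjusted p = 1.2e-05), so that both conditions had gained it and RA the more. The call at 66 h was lost without untreated replicate 2 or 3. Neo1, the widely expressed relative of Dcc, was not called at any time. Its RA libraries were nevertheless the higher ones at every time, without overlap. The log2 fold change of Neo1 ran from 0.42 ± 0.08 at 78 h to 0.89 ± 0.09 at 42 h. It measured 72.9, 93.3 and 91.9 CPM untreated and 175, 160 and 147 CPM with RA at 42 h. At 78 h the values were 132, 143 and 156 and 173, 187 and 211 CPM.

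The Unc5 receptors, which turn the response to netrins into repulsion, split. Unc5a measured 1.44, 0.784 and 0.8 CPM untreated and 1.78, 1.53 and 1.96 CPM with RA at 18 h, without overlap and without a call. It was called up from 30 h onward, and at 78 h it measured 2.81, 3.12 and 2.62 and 25.3, 26.3 and 46.2 CPM (3.53 ± 0.24, adjusted p = 4.8e-07), with the largest difference at 54 h (3.78 ± 0.18, adjusted p = 6.1e-08). Replicate 3 was the highest of the RA libraries at 78 h, and the call at 30 h was lost without any 1 untreated library. Unc5c rose from levels near the limit of detection. Its libraries held 0.0902, 0.206 and 0.293 CPM untreated and 1.17, 1.03 and 1 CPM with RA at 18 h (2.32 ± 0.38, adjusted p = 2.2e-04), from 18 and 75 reads in all, a ratio of 5.44 with a 95% interval of 3.22 to 9.67 from counting error. At 30 h there were 6 reads untreated and 83 with RA, a ratio of 9.87 with an interval of 4.35 to 27.7, a call lost with the replicate number as a block, without any 1 untreated library and without RA replicate 1 or 3. At 78 h it measured 2.34, 1.37 and 1.25 and 11.2, 11.9 and 8.16 CPM (2.69 ± 0.23, adjusted p = 3.5e-06), and the RA libraries were above the untreated ones at each of these times. Unc5b fell. It measured 83.7, 81.8 and 89.8 CPM untreated and 26.2, 30.1 and 31 CPM with RA at 18 h (-1.54 ± 0.07, adjusted p = 1.2e-09). The fall was there at 8 h (-1.22 ± 0.12, adjusted p = 0.0015), though it was lost there without any 1 untreated library, and it was called to 54 h. By 78 h the untreated libraries, at 35.5, 42.7 and 36.9 CPM, overlapped the RA libraries, at 35.5, 32.2 and 30.7 CPM. The untreated level had come down to that of the RA libraries.

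Class 3 semaphorins, which are secreted, were called 11 times and each time upward. Of the 6, 5 rose at some time, beside 16% of all genes tested. Calls up also outnumbered calls down over all genes at every time. Sema3d was called from 42 h to 78 h. It measured 0.226, 0.165 and 0.614 CPM untreated and 0.999, 0.577 and 0.87 CPM with RA at 18 h, without a call, and 1.44, 0.654 and 0.92 against 7.1, 6.11 and 5.81 CPM at 78 h (2.70 ± 0.23, adjusted p = 3.8e-06). The untreated level stayed near or below 1 CPM in most libraries, and the RA level was several CPM from 42 h. Sema3e, the ligand that binds Plxnd1 directly, was raised early only: it measured 22, 21.1 and 20.4 CPM untreated and 81.3, 74.5 and 74.7 CPM with RA at 18 h (1.88 ± 0.06, adjusted p = 1.0e-10), and 10.2, 10.3 and 8.89 against 12.8, 10.9 and 9.45 CPM at 78 h. At 30 h it was called up again (3.06 ± 0.13, adjusted p = 2.4e-05), where the untreated libraries of 5.04, 4.94 and 5.92 CPM were below those of both neighbouring times. Sema3f was called late, with 8.26, 7.59 and 8.72 CPM untreated and 4.6, 4.58 and 5.83 CPM with RA at 18 h and 9.28, 9.75 and 12 against 23.7, 23.4 and 19 CPM at 78 h (1.11 ± 0.11, adjusted p = 1.4e-05). RA libraries were thus the lower at 18 h, without a call, and the higher at 78 h, without overlap at either time. Sema3c was called up at 30 h and 42 h (1.11 ± 0.08, adjusted p = 1.7e-06), the first of these lost without any 1 untreated library, and measured 20.7, 19.9 and 18.7 CPM untreated and 18.8, 16.3 and 16.8 CPM with RA at 78 h. Sema3b was called at 54 h alone (1.47 ± 0.17, adjusted p = 4.5e-05), with 2.48, 4.03 and 3.53 CPM untreated and 10.4, 9.1 and 8.71 CPM with RA, and Sema3a at no time.

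Among the 11 membrane-bound semaphorins of classes 4 to 6, Sema6a had the strongest fall of any of the 57 genes at 18 h. It encodes a transmembrane semaphorin that binds plexins of type A. It measured 117, 106 and 123 CPM untreated and 27.2, 28.3 and 26.2 CPM with RA at 18 h (-2.07 ± 0.06, adjusted p = 2.8e-11). The difference was widest at 30 h (-4.52 ± 0.41, adjusted p = 3.7e-04), where the untreated libraries held 167, 180 and 164 CPM and the RA libraries 4.47, 12.6 and 4.96 CPM, replicate 2 being the highest of the latter. Sema6a in these untreated libraries, which had low Y-linked genes, was above the untreated level of both neighbouring times (115, 111 and 128 CPM at 42 h). At 78 h it measured 49.1, 54.3 and 52 and 15.6, 16.5 and 14.3 CPM (-1.73 ± 0.07, adjusted p = 8.1e-09). The groups did not overlap at any time, and the calls ran from 18 h to 78 h. Sema4a was called down from 42 h, with 6.14, 4.91 and 6.38 CPM untreated and 5.9, 5.52 and 5.48 CPM with RA at 18 h, which overlapped, and 3.16, 2.8 and 2.34 against 1.13, 1.4 and 1.3 CPM at 78 h (-1.10 ± 0.20, adjusted p = 9.9e-04). Its call at 78 h was lost without untreated replicate 1. Sema4g was the only semaphorin called at 8 h. It measured 6.8, 6.56 and 7.41 CPM untreated and 30.3, 26.1 and 24.9 CPM with RA at 8 h (1.97 ± 0.11, adjusted p = 1.9e-04), and 8.03, 7.26 and 9.2 against 26.5, 29.1 and 30.1 CPM at 18 h (1.81 ± 0.09, adjusted p = 4.0e-09). It was called to 42 h, the call at 30 h being lost without any 1 untreated library or RA replicate 1, and at 78 h it measured 17.1, 15.4 and 16.5 CPM untreated and 21.7, 21.7 and 21.2 CPM with RA, still without overlap but below the fold threshold. Sema6d was called up at 30 h and 42 h (1.49 ± 0.18, adjusted p = 7.4e-05), the first lost without untreated replicate 1 or 3, and Sema5a was called down at 30 h alone (-1.42 ± 0.13, adjusted p = 4.2e-04). The untreated libraries of 30 h, which had low Y-linked genes, held 0.263, 0.549 and 0.204 CPM of Sema6d. Those of both neighbouring times held more of it (1.62, 0.825 and 1.36 CPM at 18 h and 2.28, 3.65 and 2.27 CPM at 42 h). Sema4b, Sema4c, Sema4d, Sema5b, Sema6b and Sema6c were not called at any time.

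Beside the falls of Epha1, Sema6a and Unc5b, the pluripotency factor Pou5f1 fell with RA from 18 h to 78 h, with log2 fold changes of -1.31 at 18 h and -1.56 at 78 h. The other 5 pluripotency markers, Nanog, Zfp42, Esrrb, Klf4 and Dppa5a, were not called down at any time, and Klf4 was called up at 66 h and 78 h. The summed level of the 6 was 1516 to 1561 CPM untreated and 971 to 1157 CPM with RA at 18 h. Foxd3, a transcription factor of neural crest and of pluripotent cells, was called down at all 7 times. The part of pluripotent cells in the falls was not tested.

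Both neuropilins, the co-receptors of class 3 semaphorins, rose with RA, where 16% of all genes tested rose at some time. Nrp1 measured 0.632, 0.825 and 0.987 CPM untreated and 3.21, 3.3 and 2.96 CPM with RA at 18 h (1.92 ± 0.22, adjusted p = 9.0e-06). At 42 h the log2 fold change reached 4.59 ± 0.27, adjusted p = 2.8e-07, which is 24.1-fold, with 0.236, 0.875 and 0.757 CPM untreated and 17.1, 16.4 and 12.5 CPM with RA. At 78 h it measured 2.01, 1.55 and 1.48 and 8.34, 10.9 and 12.7 CPM (2.69 ± 0.20, adjusted p = 9.1e-07). No untreated library held more than 2.01 CPM, and the groups did not overlap at any of the 7 times. Nrp2 was called up at 54, 66 and 78 h. It measured 14.8, 12.5 and 13.5 CPM untreated and 13.7, 16.1 and 17 CPM with RA at 18 h, which overlapped, and 11.8, 12.6 and 17.3 against 26.4, 31.3 and 29 CPM at 78 h (1.07 ± 0.12, adjusted p = 3.5e-05), a call lost without untreated replicate 1 or 2.

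Of the 8 plexins, the receptors of semaphorins, 4 rose and 4 were never called, where 16% of all genes tested rose at some time. Plxna2 changed most. It measured 6.86, 6.27 and 6.3 CPM untreated and 46.5, 40.6 and 40.1 CPM with RA at 18 h (2.73 ± 0.09, adjusted p = 5.0e-11), and its difference was widest at 30 h (3.80 ± 0.26, adjusted p = 1.1e-04). At 78 h the values were 79.2, 80.6 and 105 CPM untreated and 140, 167 and 202 CPM with RA, without overlap and without a call. Both conditions were thus far above their level of 18 h. Plxna4, which with neuropilins forms receptors for class 3 semaphorins, was called from 42 h to 78 h. It measured 3.56, 2.48 and 2.99 CPM untreated and 2.13, 2.31 and 2.87 CPM with RA at 18 h, which overlapped, and 3.45, 3.98 and 3.32 against 9.79, 11.3 and 11.7 CPM at 78 h (1.62 ± 0.13, adjusted p = 1.7e-06). Its level had been 5.72, 6.15 and 5.11 CPM at day 2 and 0.263, 0.183 and 0.613 CPM in the untreated libraries of 30 h, which had low Y-linked genes. Plxnc1 was called at 18, 30 and 42 h, with 2.98, 3.55 and 3.44 CPM untreated and 11.3, 10.1 and 11.7 CPM with RA at 18 h (1.73 ± 0.12, adjusted p = 9.8e-08) and 12.7, 10.9 and 12.7 against 12.9, 16.6 and 19.4 CPM at 78 h. Its call at 42 h was lost without replicate 1 of either group. Plxnd1, the receptor of Sema3e, was called at 30 h and 42 h (1.07 ± 0.10, adjusted p = 1.3e-05), the first lost without any 1 untreated library. Plxna1, Plxna3, Plxnb1 and Plxnb2 were not called.

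To ask whether the response itself changed between the early and the late organoids, the RA effect at 78 h was compared with that at 18 h in one fit over the 12 libraries of both times. By edgeR's quasi-likelihood test of the interaction, with the same limit on the adjusted p and none on size, 25 of the 57 differed, against 27.9% of 18017 genes tested, and the effect was higher at 78 h for 13 and lower for 12. The largest increases were those of Robo3 (difference of log2 fold changes 4.32 ± 0.37, SE, adjusted p = 1.2e-07) and Unc5a (2.65 ± 0.45, adjusted p = 1.7e-04). The largest decreases were those of Robo2 (-4.13 ± 0.26, adjusted p = 3.4e-09), Epha7 (-3.64 ± 0.18, adjusted p = 1.3e-10) and Efnb1 (-3.21 ± 0.13, adjusted p = 1.6e-11). Robo2 and Robo3, receptors of the same family, thus lay at opposite ends. Slit1 showed a larger effect late (1.01 ± 0.24, adjusted p = 0.0033), a call lost in one fit of all 45 libraries and without untreated replicate 1 or 3 of 18 h, and the interaction was not called for Slit2, Nrp1, Epha1 or Sema6a. The difference was also positive for Plxna4 (1.88 ± 0.22, adjusted p = 4.4e-06), Sema3f (1.79 ± 0.17, adjusted p = 5.5e-07) and Unc5b (1.31 ± 0.11, adjusted p = 8.4e-08), where for Unc5b the early fall was no longer present at 78 h.

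**Figure D4:**
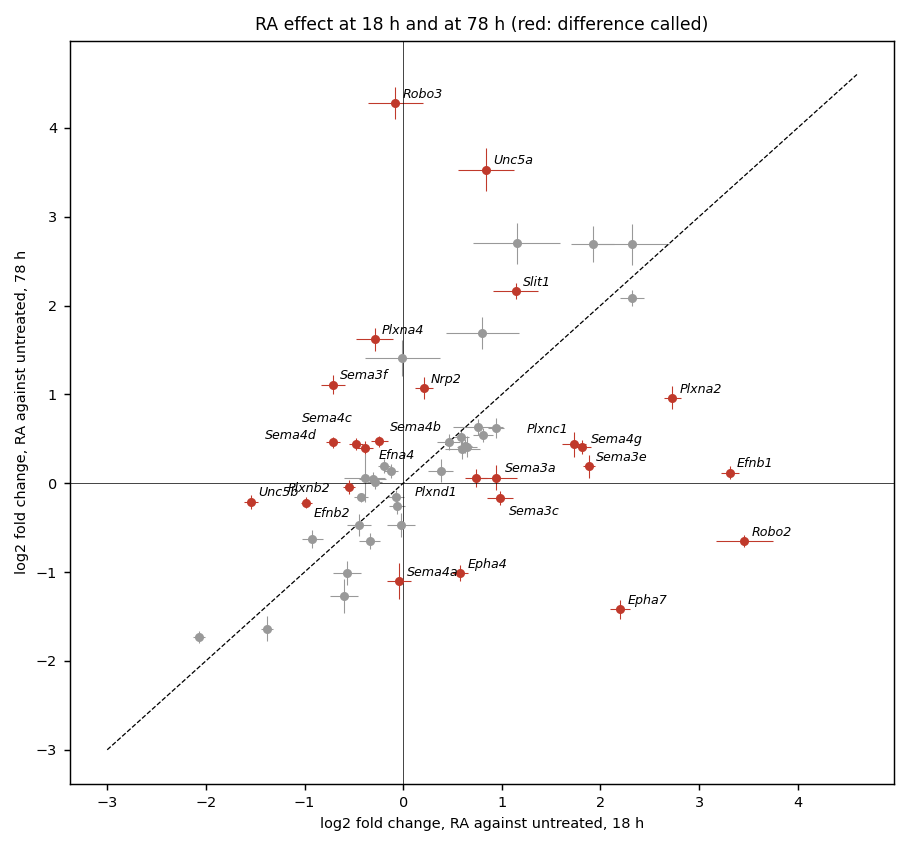
log2 fold change of RA against untreated organoids at 18 h (x axis) and at 78 h (y axis) for the genes tested at both times, with bars of 1 SE and a dashed line of equal effect. The 25 genes whose effect differed are red and named: Robo3 and Unc5a lie far above the line, and Robo2, Efnb1 and Epha7 far below it.

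Genes that lie near each other in the genome were not always called alike. Ephb2 and Epha8 are 93.4 kb apart on chromosome 4, and Ephb2 was called up at 30, 42 and 54 h whereas Epha8 was called down from 42 h. Sema3d, Sema3a and Sema3e follow each other on chromosome 5 with gaps of 536 and 423 kb, and were called late, at no time and early, in that order. Sema3b and Sema3f lie 72.3 kb apart on chromosome 9 and were called up at 54 h alone and at 66 h and 78 h. Both were nevertheless higher with RA at 42, 54 and 66 h. The log2 fold changes were 0.92, 1.47 and 0.98 for Sema3b and 0.66, 0.90 and 1.23 for Sema3f, on either side of the threshold. Efna1, Efna3 and Efna4, within one stretch of chromosome 3 with gaps of 32.8 and 10.4 kb, were never called. Robo1 and Robo2 are 846 kb apart on chromosome 16, with Robo1 uncalled and Robo2 raised early.

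Of the other guidance ligands and receptors on a list of 27, 26 were in the table. At 18 h, 5 of 23 tested rose and 0 fell by edgeR's test, against 8.17% and 2.76% of all genes tested. At 78 h, 9 of 23 rose and 3 fell, against 7.66% and 4.03%. The median log2 fold changes of the list were 0.60 at 18 h and 0.71 at 78 h. Over the 7 times, 14 rose at some time, 5 fell at some time and 9 were never called, beside the 16% and 9.14% of all genes given above. Of single genes, those called at 5 or more times are given. Flrt3, an adhesion protein that can bind Unc5 receptors, was called up from 18 h to 78 h, at 6 to 7.47 CPM untreated and 27.7 to 34.1 CPM with RA at 18 h (log2 fold change 2.21, adjusted p = 3.6e-09). Draxin, a secreted repellent of commissural axons that binds netrin receptors, was called up from 30 h, at 3.93 to 5.59 CPM untreated and 14.3 to 16.4 CPM with RA at 78 h (1.69, adjusted p = 1.7e-06). Epha2, an Eph receptor, was called down from 30 h, at 53.2 to 64.8 CPM untreated and 16.1 to 24.6 CPM with RA at 78 h (-1.45, adjusted p = 4.2e-06). For all 3 the groups did not overlap at the time given. Of 34 genes that act downstream of guidance receptors, 9 rose and 3 fell at some time, beside the same 16% and 9.14%, and 23 were never called, with a median log2 fold change of 0.21 at 78 h. Dpysl3, a collapsin response mediator that transmits semaphorin signals, was the one called at 5 times, up from 30 h, with 72.3 to 83 CPM untreated and 180 to 231 CPM with RA at 78 h (1.41, adjusted p = 1.9e-07).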

How the data were processed

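RNA was sequenced from 45 libraries of mouse organoids, 3 for each of 15 groups. The deposited table holds raw counts of reads per gene, made by the authors by trimming reads (Trim Galore 0.5.0), removing abundant sequences (Bowtie2 2.3.4.1), aligning to GRCm38 (STAR) and counting with featureCounts (Subread 1.6.2), with tools and versions taken from the submitters' processing notes and the paper's methods. The strand setting and the treatment of reads that map to several places are not given in the sources used here, so genes with near-identical copies or opposite-strand neighbours are uncertain, and 43 of the 57 genes share no exon bases with another gene. Totals of 17298632 to 39688686 reads set the precision, and counting intervals and floors cover counting error only.

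Groups and replicate numbers were taken from the sample titles. RA was compared with untreated organoids at each of 7 times on the 6 libraries of that time, day 2 with 78 h likewise, and the RA effects of 18 h and 78 h on 12 libraries, with edgeR 4.0.16 in R 4.3.3 (TMM factors, filterByExpr with a minimum count of 10 and a minimum total of 15, quasi-likelihood test, Benjamini-Hochberg adjustment over all genes tested). A call needed a log2 fold change beyond 1 with an adjusted p below 0.01, and the interaction the adjusted p alone. An exact permutation test of 3 against 3 cannot go below 0.1 and was not used. Standard errors were derived from the fold change and its F statistic. Levels are CPM after TMM over all 45 libraries, and levels per kb divide by merged exon length. The test was tried on simulated counts first.

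The 57 genes, the marker lists (neuroepithelium, neurons, floor plate, neural crest, pluripotent cells, endoderm, mesoderm and endothelium) and the lists of other guidance and downstream genes were chosen with earlier results of these data known. Genes named with values were those called in one direction at 3 or more times, called in opposite directions, called in the interaction or highest per length in their role, and listed genes called at 5 or more times. Names and values beyond this rule, such as Sema6d, Foxa2 and Dcx, were added after their values were seen. The times shown for Slit3, Sema3c and Neo1, which are within the rule, were also chosen after their values were seen.

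Alternatives were the DESeq2 1.42.0 test, RLE factors, library totals, no filter on low counts, looser thresholds, one fit of all 45 libraries, the replicate number as a block, each library left out in turn and, at 30 h, libraries of the earlier series of library numbers only. At 66 h same-numbered RA and untreated libraries deviated together, with correlations of 0.14 to 0.438 in all 3 pairs, although the labels name no shared culture, so the counts with the block are given beside those of the fit without it.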

Additional observations from a re-analysis of the deposited data

Results flagged for a closer look

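The RA effect at 78 h differed from that at 18 h for 25 of the 57 genes, by edgeR's quasi-likelihood test of the interaction at an adjusted p under 0.01, where 27.9% of all genes tested differed. Values are the log2 fold change at 78 h minus that at 18 h, where time cannot be told apart from the series of library numbers. Among Robo and netrin receptors the difference was 4.32 for Robo3, -4.13 for Robo2, 2.65 for Unc5a and 1.31 for Unc5b, and among Slits it was 1.01 for Slit1. Among ephrins it was -3.21 for Efnb1, 0.73 for Efnb2 and 0.77 for Efna4, the last 2 of which were not called at any single time. Among Eph receptors it was -3.64 for Epha7 and -1.61 for Epha4. Among class 3 semaphorins it was -1.70 for Sema3e, -1.18 for Sema3c, -0.90 for Sema3a and 1.79 for Sema3f. Among membrane-bound semaphorins it was -1.42 for Sema4g, -1.09 for Sema4a, 0.68 for Sema4b, 0.90 for Sema4c and 1.15 for Sema4d, so that Sema4 genes stood on both sides. Among neuropilins and plexins it was 0.84 for Nrp2, 1.88 for Plxna4, 0.49 for Plxnb2, -1.79 for Plxna2, -1.31 for Plxnc1 and -0.71 for Plxnd1.

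The call of Sema3a was lost without any 1 of 9 of the 12 libraries and in one fit of all 45 libraries, and those of Nrp2 and Plxnd1 in the latter. Several of these genes, among them Sema4b, Sema4c, Sema4d, Efna4, Efnb2 and Plxnb2, differed between the times by about 1 or less on the log2 scale, without passing the fold threshold with RA at either time.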

How the results depend on the processing

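No fold change of a call was reversed under any alternative, in 0 of 1408 values with other settings and 0 of 1536 with a library left out, and 18 and 86 of them no longer passed the thresholds. Of the 124 RA calls, 24 were lost in at least 1 alternative, 10 of them at 30 h. Counts of genes stayed within 1.5 times in 114 of 134 cases with other settings and 112 of 120 with a library left out.

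When the fold threshold was dropped and the adjusted p raised to 0.05, RA gave 9 genes up with 7 down at 8 h, 26 with 18 at 18 h, 34 with 13 at 42 h, 33 with 13 at 54 h, 32 with 13 at 66 h, 28 with 16 at 78 h, and 25 with 8 at 30 h. From day 2 to 78 h it was 44 up with 10 down untreated and 46 with 8 with RA. At 8 h, 5 rose and 2 fell with no filter on low counts and with DESeq2, and 6 rose and 2 fell in one fit of all 45 libraries. Leaving out 1 library at a time gave 2 to 6 up with 0 to 2 down at 8 h, 10 to 13 with 3 to 4 at 18 h, 8 to 21 with 4 to 6 at 30 h, 16 to 21 with 7 to 8 at 42 h, 13 to 15 with 6 to 8 at 54 h, 11 to 14 with 4 to 6 at 66 h, and 12 to 14 with 5 to 7 at 78 h. From day 2 it gave 33 to 35 up and 4 to 5 down untreated and 35 to 36 up and 6 down with RA, and 23 to 29 genes for the interaction. The cause of these shifts was not tested.

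With the replicate number as a block, the pairing at 66 h gave 12 genes up and 6 down and lost Epha5. At the other times the correlations ran from -0.326 to 0.267. They were 0.0334 to 0.19 at 30 h, and 0.267, -0.00133 and 0.241 at 78 h. So few pairs cannot decide whether the numbers pair the libraries at these times. The block gave 2 up and 1 down at 8 h (without Efnb1), 17 and 6 at 30 h, and the counts given above elsewhere. Depth limits Dcc, Unc5c and Robo2 up to 30 h, where untreated libraries held few reads or 0.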
